A study of Mus musculus with 6 samples.

Results

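Long noncoding RNAs that are transcribed at high levels in most cells were followed in colonic group 2 innate lymphoid cells (ILC2s), lymphocytes that reside in tissues, lack an antigen receptor and are known for type 2 cytokines. The set held 10 genes of the 23268 in the deposited table, chosen by symbol. It comprised the nuclear RNAs Malat1 and Neat1 and 8 host genes of small nucleolar RNAs (snoRNAs): Gas5, Snhg1, Snhg3, Snhg5, Snhg6, Snhg8, Snhg12 and 1110038B12Rik.

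Malat1 is retained in the nucleus, where it lies in nuclear speckles, bodies rich in splicing factors. Neat1 is the RNA scaffold of paraspeckles and is made in a short polyadenylated and a long form. A snoRNA host gene carries snoRNAs in its introns, which are released from the spliced-out intron and guide chemical modification or processing of ribosomal RNA. The spliced host RNA often encodes no functional protein, is exported, and in many hosts is degraded by nonsense-mediated decay once ribosomes engage it. Many hosts, like the ribosomal protein genes, start transcription at a 5′ terminal oligopyrimidine (TOP) tract, a C followed by a run of C and T, through which mTORC1 signalling controls translation of the RNA.

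Colonic ILC2s had been sorted from C57BL/6 animals, 6 to 8 weeks old, whose drinking water was plain (control) or held 3% DSS (dextran sulfate sodium) over 6 days. DSS injures the colonic epithelium and causes colitis. Each group had 3 libraries of full-length cDNA, and the comparison asks how these transcripts differ in ILC2s between DSS colitis and water. The labels do not say whether a library came from 1 mouse or from pooled mice. The p-values therefore describe only how these libraries vary, which may be technical.

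The fragments counted on genes ran from 9962415 in DSS replicate 3 to 23119390 in control replicate 1. The libraries labelled replicate 3 were the shallowest of their groups but had most genes above 0, 21647 in the control and 22153 in the DSS library, against 15809 to 19290 in the other 4. On a principal component analysis DSS replicate 3 stood apart on the first component (48.1% of the variance) and DSS replicate 1 on the second (28.5%). The 12 ILC2 markers checked, among them Gata3 and Il7r, were each detected and summed to 6608 to 7541 FPKM in the control libraries and 4862 to 7732 in the DSS libraries. Of these 12, 2 had a higher and 10 a lower mean in DSS, and 1 passed the test. Sums of other cell types' markers were lower, but some differed between the groups. The 8 neutrophil markers summed to 2.87 to 7.61 FPKM in control and 67.3 to 105.8 in DSS libraries, 7 of 8 had a higher DSS mean, and 3 passed the test. The 8 macrophage and monocyte markers summed to 10.03 to 14.45 and 14.01 to 30.1 (7 of 8 higher). The 6 B and plasma cell markers summed to 26.6 to 39.1 and 49.7 to 291 (6 of 6 higher), and the 8 epithelial markers to 12.2 to 20.4 and 26.2 to 33.4 (7 of 8 higher). Sums of the remaining lists overlapped between the groups. The 5 markers of group 3 innate lymphoid cells (ILC3s) summed to 171.2 to 284.4 in control and 70.58 to 309.6 in DSS libraries (3 of 5 higher). The 5 T cell markers found summed to 23.24 to 30.22 and 21.34 to 56.71 (3 of 5 higher). The 7 stromal and endothelial markers summed to 18.26 to 32.01 and 10.33 to 27.12 (3 of 7 higher). No measured marker of these lists was at 0 in all libraries, and their part in the values below was not tested. In bulk RNA, fewer cells of a type and less RNA per cell cannot be told apart.

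The start sites of the hosts are shown first because the TOP tract is the feature that hosts are known to share with ribosomal protein genes. A RefSeq promoter (GRCm38.p6, the build of mm10) was matched for 8 of the 10 genes. Each line gives 30 bases before and 30 bases from the annotated start, 5′ to 3′, with capitals marking a TOP-like tract, taken as a C followed by at least 4 further C or T bases on the gene's strand and beginning within 5 bases of the start.
1110038B12Rik, chr17:34952439-34952498, minus strand: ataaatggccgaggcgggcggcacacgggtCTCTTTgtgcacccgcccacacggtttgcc
Snhg8, chr3:123508307-123508366, minus strand: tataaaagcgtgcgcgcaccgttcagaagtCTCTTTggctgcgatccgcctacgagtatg
Gas5, chr1:161035136-161035195, plus strand: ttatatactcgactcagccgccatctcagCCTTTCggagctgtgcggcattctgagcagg
Snhg12, chr4:132308648-132308707, plus strand: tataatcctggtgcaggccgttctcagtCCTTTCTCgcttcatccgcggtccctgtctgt
Snhg3, chr4:132353657-132353716, minus strand: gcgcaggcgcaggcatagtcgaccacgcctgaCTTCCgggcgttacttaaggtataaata
Snhg1, chr19:8723457-8723516, plus strand: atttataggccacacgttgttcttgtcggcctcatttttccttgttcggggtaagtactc
Snhg5, chr9:88522868-88522927, minus strand: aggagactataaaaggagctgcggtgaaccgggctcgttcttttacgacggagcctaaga
Malat1, chr19:5802643-5802702, minus strand: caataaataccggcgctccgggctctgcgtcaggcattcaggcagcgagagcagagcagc
Such a tract was found for 5 of the 7 hosts with a promoter: 1110038B12Rik, Snhg8, Gas5, Snhg12 and Snhg3. Gas5 has a second annotated start upstream, at position 161034601, whose window held none. No tract began within 5 bases of the annotated starts of Snhg1, Snhg5 or Malat1. The Snhg5 line does hold such a run farther downstream of its start, outside that limit. The Snhg1 line holds a run of C and T close after its start that begins with T, so it did not count. A start that misses this definition is therefore not shown to lack a TOP tract. The same definition was met by 21.2% of the 27025 genes in the promoter table and by 49.2% of 59 cytosolic ribosomal protein genes. Neat1 and Snhg6 were not among the matched promoters.

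Levels are given as FPKM, fragments scaled to transcript length and library size, as deposited. The length that the authors divided by could be read back from the values and equalled that of the longest GENCODE M21 transcript for all 10 genes. Per length, Malat1 was the highest of the 10 in every library and Gas5 the next. In the control group the order by mean was Malat1 (591 FPKM), Gas5 (266), Snhg8 (100.2), Snhg5 (71.2), Snhg1 (37.2), 1110038B12Rik (33.0), Snhg12 (30.2), Snhg6 (21.4), Neat1 (1.07) and Snhg3 (0.720). Neighbours in this order did not overlap between control libraries, except 1110038B12Rik with Snhg12 and Neat1 with Snhg3. The lowest Snhg1 value (36.75) and the highest 1110038B12Rik value (36.53) were close.

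**Figure D1:**
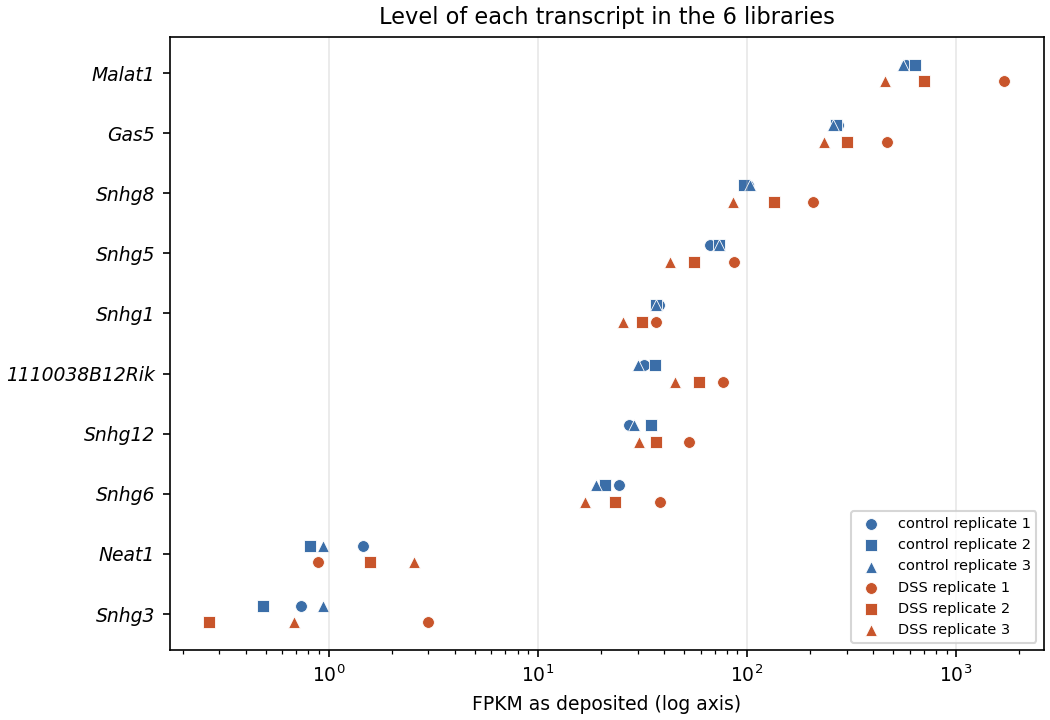
FPKM as deposited (log axis) of the 10 transcripts, with 1 point for each of the 3 control (blue) and 3 DSS (orange) libraries and 1 marker shape per replicate number. Malat1 reached 1695 FPKM in DSS replicate 1 against 457.1 to 702 in the other 5 libraries, and the DSS points of 1110038B12Rik lie above all its control points.

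With the lengths that the authors divided by, the description "abundant" held for 8 of the 10. By mean level over the 6 libraries, Malat1 lay at percentile 99.6 of all genes in the table, Gas5 at 99.1 and the 6 hosts Snhg8, Snhg5, 1110038B12Rik, Snhg12, Snhg1 and Snhg6 at 90.1 to 97.8. Neat1 lay at 53.5 and Snhg3 at 48.0. Snhg3 rested on 3 to 26 fragments per library, and Neat1 on 249 to 706 fragments.

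The divisor matters for the order. Neat1 was counted over the 20771 bases of its long form. The same fragments over the 3004 bases of the annotated short form would give 5.65 to 17.7 FPKM, below the 7 hosts other than Snhg3 in each library, except that in DSS replicate 3 it would exceed Snhg6 (17.7 against 16.7). For Snhg1 the divisor was a 2728-base transcript, while the median of its 18 annotated transcripts is 602.5 bases. Divided by the median transcript length of each host, an alternative chosen after seeing the data, the control mean of Snhg1 was 168 and that of Snhg8 147, so Snhg1 moved from the fourth to the second place among hosts. Gas5 stayed first, and 1110038B12Rik and Snhg12 exchanged places. Differences between groups for 1 gene do not depend on this choice, apart from the pseudocount.

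None of the 10 transcripts changed between DSS and control at an adjusted p under 0.05 (limma on log2(FPKM + 1), Benjamini-Hochberg over 12187 genes). Over all tested genes 0.222% passed, 27 in number, of which 9 higher (0.0738%) and 18 lower (0.148%) in DSS (5 and 4 with median-of-ratios scaling), so a count of 0 among 10 does not set the members apart. Without DSS replicate 1 the number over all genes was 435, and without another single library 5 to 15, and no member passed in any of these fits. At an unadjusted p under 0.05 there was 1 member, 1110038B12Rik, against 8.99% of all genes. With voom on the recovered fragments the count was also 0. By mean, 8 of the 10 were higher and 2 lower in DSS, with a median log2 change of 0.30 against 0.03 over all tested genes. Without DSS replicate 1 Snhg3 did not pass the filter, and the median of the other members was −0.0081. Over the genes of the main test that were still tested in that fit it was 0.11. All 10 passed the filter of a mean FPKM of at least 1, Snhg3 at 1.02 only through 1 library, DSS replicate 1.

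**Figure D2:**
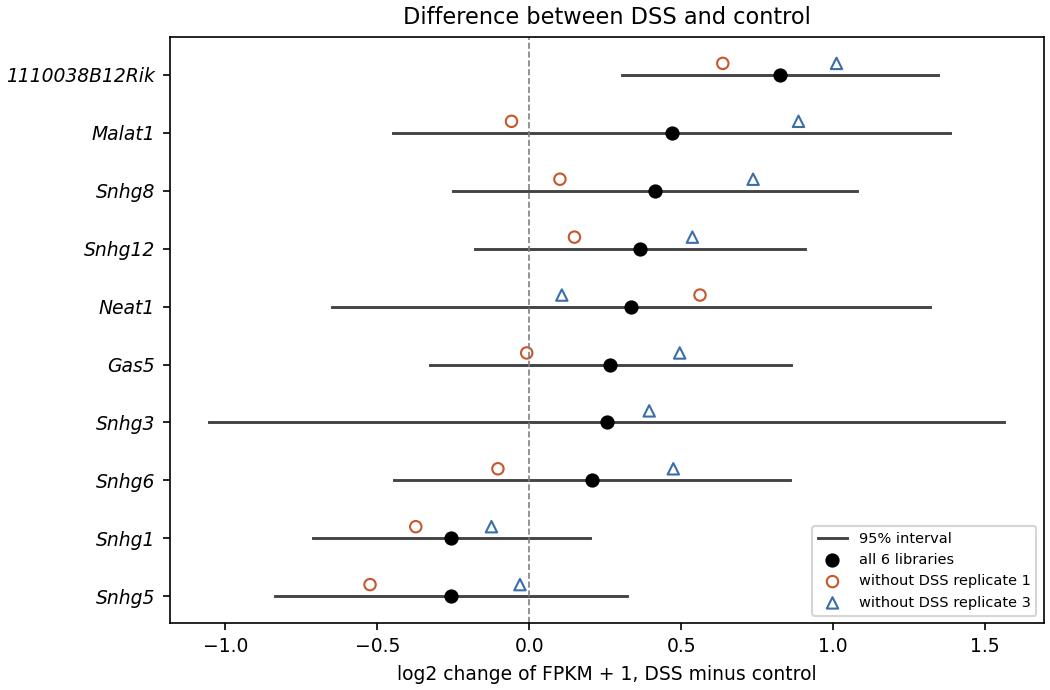
Log2 change of FPKM + 1, DSS minus control, for the 10 transcripts, with the limma 95% interval (bars, n = 3 against 3) and the value without DSS replicate 1 or 3 (open symbols, Snhg3 could not be tested without DSS replicate 1). Only the interval of 1110038B12Rik, 0.30 to 1.35, lies above 0, before adjustment for the number of genes tested.

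1110038B12Rik, a host gene of the box C/D snoRNA Snord52 that lies on chromosome 17 (mm10, 34950238 to 34952471, minus strand), was the 1 transcript with every DSS library above every control library. It measured 32.3, 36.5 and 30.05 FPKM in control replicates 1, 2 and 3. In DSS replicates 1, 2 and 3 it measured 76.9, 58.8 and 45.4. The groups were thus separate, with the highest value in DSS replicate 1 and a gap between 36.5 and 45.4. The means were 33.0 ± 3.29 and 60.3 ± 15.8 (SD, n = 3), 1.83-fold higher in DSS. The log2 change was 0.83 ± 0.23 SE with an adjusted p of 0.235 by limma, which did not pass. Of all tested genes 6.35% had separate groups in this direction. Its sign held in all 18 other settings fitted, where the change ran from 0.64 to 1.01 and the limma adjusted p from 0.0522 to 0.861. The smallest change, 0.64, was that without DSS replicate 1.

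Malat1 lies on chromosome 19 (mm10, 5795690 to 5802672, minus strand) as a single exon block. It measured 579, 636 and 557 FPKM in control replicates 1, 2 and 3. It measured 1695, 702 and 457.1 in DSS replicates 1, 2 and 3. The control libraries were close together, whereas the DSS libraries lay on both sides of them, with 1 far above. DSS replicate 1 exceeded the next highest library 2.41-fold. The means were 591 ± 40.7 and 952 ± 656 (SD, n = 3). The log2 change was 0.47 ± 0.41 SE (95% interval −0.45 to 1.39, limma adjusted p = 0.818), and without DSS replicate 1 it was −0.06. Malat1 alone took 0.394% to 0.449% of all gene fragments in the control libraries and 1.20%, 0.497% and 0.324% in DSS replicates 1, 2 and 3. It supplied 77.3% to 87.0% of the fragments of the 10 genes together. An annotated gene on the opposite strand, Gm37376, shares 453 bases with it, and these unstranded libraries cannot separate the pair.

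Neat1, the neighbour of Malat1 on chromosome 19 (mm10, 5824708 to 5845478, minus strand), did not share this pattern of libraries. It measured 1.45, 0.817 and 0.935 FPKM in control replicates 1, 2 and 3. It measured 0.893, 1.58 and 2.56 in DSS replicates 1, 2 and 3. The groups overlapped, the highest value was in DSS replicate 3 and the value in DSS replicate 1 was within the control range. The log2 change was 0.34 ± 0.44 SE (95% interval −0.65 to 1.32, limma adjusted p = 0.882). It was 0.11 without DSS replicate 3 and 0.56 without DSS replicate 1. The high value of DSS replicate 3 stood beside the largest number of genes above 0 in any library, 22153, and the part of that in it was not tested. The log2 ratio of Malat1 to Neat1 within a library, each as FPKM + 1, was 7.88, 8.45 and 8.17 in the control and 9.81, 8.09 and 7.01 in the DSS libraries. It differed by 0.13 between the group means (exact two-sided permutation test, p = 0.9, where 3 against 3 cannot give less than 0.1), by −0.62 without DSS replicate 1 and by −0.011 without control replicate 1. Adding 1 narrows this ratio because Neat1 is near 1 FPKM, and without it the difference was −0.097.

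The other 4 well-covered hosts with a higher mean in DSS were Gas5, Snhg8, Snhg12 and Snhg6. They had their highest value in DSS replicate 1 and overlapped between the groups. Gas5 is a growth-arrest transcript that carries several box C/D snoRNAs on chromosome 1 (mm10, 161034422 to 161038539, plus strand). It measured 272, 268 and 258 FPKM in control and 469, 300.1 and 233 in DSS replicates 1, 2 and 3. The control values were within a narrow range, and the DSS values lay on both sides of it. The log2 change was 0.27 ± 0.27 SE (95% interval −0.33 to 0.86, limma adjusted p = 0.841), and without DSS replicate 1 it was −0.0081.

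Snhg8 on chromosome 3 (mm10, 123507552 to 123508404, minus strand), a host with 1 annotated H/ACA snoRNA, measured 100.6, 96.5 and 103 FPKM in control and 207, 135 and 85.4 in DSS libraries. DSS replicates 1 and 2 were above the control range and DSS replicate 3 below it (log2 change 0.42 ± 0.30 SE, 95% interval −0.25 to 1.08, limma adjusted p = 0.765). The change was 0.10 without DSS replicate 1 and 0.74 without DSS replicate 3. Snhg12 on chromosome 4 (mm10, 132308623 to 132311024, plus strand) measured 27.2, 34.7 and 28.7 in control and 52.9, 36.6 and 30.5 in DSS libraries. The overlap came from control replicate 2 and DSS replicate 3 (0.36 ± 0.24 SE, 95% interval −0.18 to 0.91, limma adjusted p = 0.742), and without DSS replicate 1 the change was 0.15. Snhg6 on chromosome 1 (mm10, 9941959 to 9944118, minus strand) measured 24.4, 20.9 and 19.01 in control and 38.5, 23.4 and 16.7 in DSS libraries. Its DSS values again surrounded the control values, and its change without DSS replicate 1 was −0.10 (0.21 ± 0.29 SE with all libraries, limma adjusted p = 0.891). Snhg6 shares 127 exon bases with the opposite-strand gene Mcmdc2, which averaged 0.528 FPKM.

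Snhg1 and Snhg5 were the hosts with a lower mean in DSS. Snhg1, which carries 8 annotated snoRNA genes on chromosome 19 (mm10, 8723475 to 8726443, plus strand), measured 38.0, 36.75 and 36.8 FPKM in control and 36.65, 31.6 and 25.7 in DSS replicates 1, 2 and 3. Every DSS value was below every control value, but DSS replicate 1 by only the gap between 36.65 and 36.75. Of all tested genes 9.6% had separate groups in this direction. The log2 change was −0.26 ± 0.20 SE (95% interval −0.71 to 0.20, limma adjusted p = 0.802), and −0.12 without DSS replicate 3.

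Snhg5, the host of the U50 snoRNA genes Snord50a and Snord50b on chromosome 9 (mm10, 88521050 to 88522929, minus strand), measured 66.3, 73.6 and 73.5 FPKM in control. It measured 86.3, 56.0 and 43.1 in DSS replicates 1, 2 and 3. DSS replicate 1 was above and the other two DSS libraries were below the control range. The log2 change was −0.26 ± 0.26 SE (95% interval −0.84 to 0.32, limma adjusted p = 0.845), and −0.52 without DSS replicate 1 (limma adjusted p = 0.0808, the lowest of its 18 settings, which reached 0.9999). Without DSS replicate 3 it was −0.03, and without both libraries numbered 3 it was −0.0065.

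Snhg3, the host of the H/ACA snoRNAs Snora73a and Snora73b on chromosome 4 (mm10, 132348014 to 132353686, minus strand), was near the detection limit. It had 10, 5 and 7 fragments in control and 26, 3 and 4 in DSS replicates 1, 2 and 3, or 0.736, 0.485 and 0.939 against 2.98, 0.269 and 0.682 FPKM. Apart from DSS replicate 1 the libraries held 3 to 10 fragments, and no difference was detectable at this depth (log2 change 0.26 ± 0.58 SE, 95% interval −1.05 to 1.56, limma adjusted p = 0.934). It shares 135 exon bases with Rcc1 on the same strand, and 705 with Gm17300 on the other, so some fragments could belong to these genes.

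Most members ordered the DSS libraries alike. DSS replicate 1 held the highest value of 8 of the 10 members and DSS replicate 3 the lowest of 6. Over all tested genes these libraries held the highest value of 18.9% and the lowest of 12.2%, and over 80 cytosolic ribosomal protein transcripts of 92.5% and 92.5%. The ribosomal protein transcripts took 12.7%, 8.67% and 6.10% of the fragments of DSS replicates 1, 2 and 3 and 7.48% to 7.77% of those of the control libraries. Their median log2 level departed from the control mean by 0.80, 0.13 and −0.44 in DSS replicates 1, 2 and 3, and the median departure of the 8 hosts was 0.82, 0.15 and −0.21. Malat1 departed by 1.52, 0.25 and −0.37, in the same order of libraries, and Neat1 by −0.12, 0.33 and 0.79, in the opposite order.

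**Figure D3:**
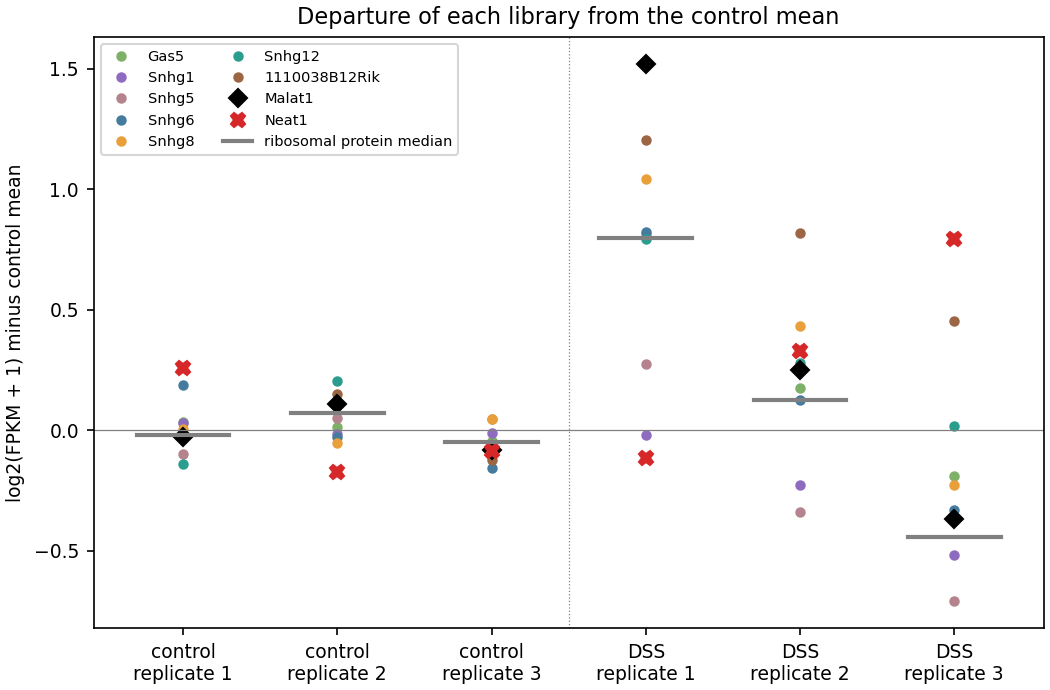
Departure of log2(FPKM + 1) from the control mean in each of the 6 libraries for Malat1, Neat1 and the 7 hosts other than Snhg3 (points), and for the median of 80 ribosomal protein transcripts (grey bars). Malat1 reached 1.52 in DSS replicate 1, where the ribosomal protein median was 0.80, while Neat1 was at −0.12.

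DSS replicate 1 differed from the other 5 libraries by transcript length as well. Its median log2 ratio to their mean (FPKM + 1) was 0.20 for 1372 genes under 1000 bases and −0.44 for 3725 genes over 4000 bases. Malat1, at 6983 bases, had the highest ratio of those 3725 genes (1.53), and Neat1 lay at percentile 54.3 of them (−0.38). Gas5, classed by its longest transcript of 2556 bases, lay at percentile 96.4 of the genes of 2000 to 4000 bases. The median of its 25 annotated transcripts is 629 bases, in the class under 1000 bases. In that class its ratio (0.81) would lie below that of Snhg6 (0.85). The 4 hosts under 1000 bases, 1110038B12Rik, Snhg8, Snhg6 and Snhg3, lay at percentiles 76.7, 81.6, 74.5 and 91.6 of that class, Snhg3 on 26 fragments. The source of this difference between libraries was not tested.

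Each host was also set against the ribosomal protein median of the same library, both as log2(FPKM + 1). This removes what a host and the ribosomal protein transcripts share within a library. 1110038B12Rik stood at −4.17, −4.09 and −4.24 log2 units from that median in the control libraries and at −3.76, −3.47 and −3.27 in DSS replicates 1, 2 and 3. It was thus nearer the median in every DSS library, by 0.67 on average. Snhg8 had the same direction with a smaller difference, 0.25, and separate groups (−2.56, −2.71 and −2.49 against −2.34, −2.28 and −2.37). Snhg5 was farther below the median in every DSS library, by −0.42 (−3.15, −3.10 and −2.98 against −3.60, −3.54 and −3.35). Snhg1 also had a difference of −0.42, with DSS replicate 3 (−4.07) inside the control range of −4.08 to −3.94. Gas5, Snhg12, Snhg6 and Snhg3 overlapped, with differences of 0.11, 0.20, 0.05 and 0.09. Of all tested genes, 2.29% had separate groups on this scale upwards and 4.72% downwards, beside 2 and 1 of the 8 hosts.

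**Figure D4:**
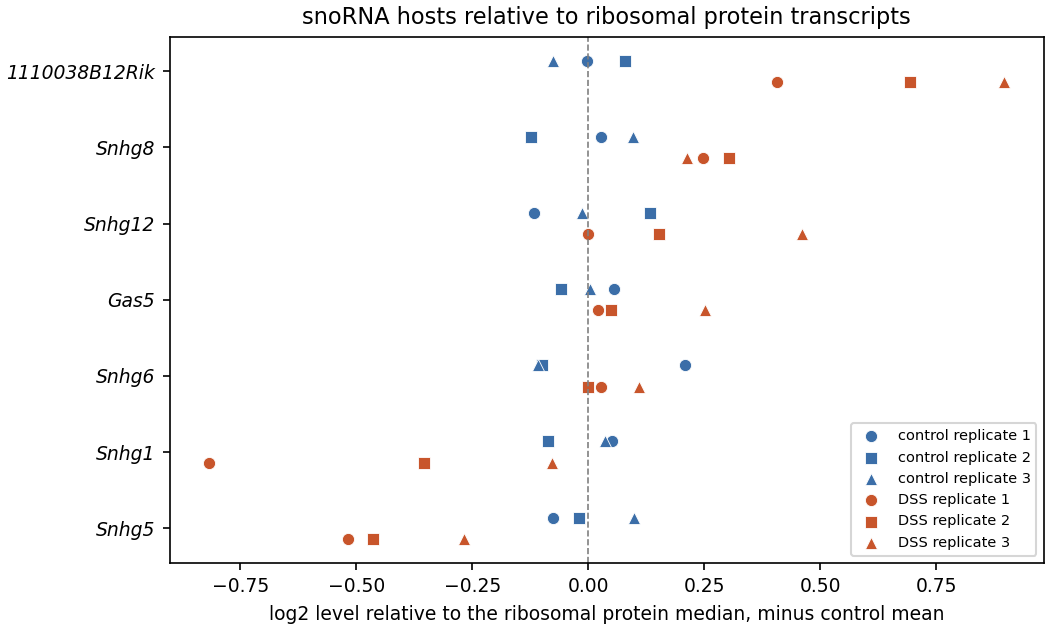
Log2 level of the 7 hosts other than Snhg3 relative to the ribosomal protein median of the same library, minus the control mean, with 1 point per control (blue) and DSS (orange) library. The DSS points of 1110038B12Rik and Snhg8 lie to the right of all control points, and those of Snhg5 to the left.

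Members were also compared by the log2 ratio of their FPKM + 1 within a library. For pairs with Neat1 or Snhg3 the added 1 weighs on the ratio. Of the 45 pairs of members, 15 (33.3%) had separate groups, against 16.2% of all pairs of tested genes. Pairs share members and are not independent, so this is a description. The widest gap was between Snhg5 and 1110038B12Rik. Their log2 ratio was 1.02, 0.99 and 1.26 in the control libraries and 0.16, −0.07 and −0.07 in the DSS libraries. Snhg5 was thus about 1 log2 unit above 1110038B12Rik in each control library and close to it in each DSS library. The log2 ratio of Snhg1 to 1110038B12Rik went from 0.23, 0.01 and 0.29 to −1.05, −0.87 and −0.80, so their order turned in all 3 DSS libraries. Gas5 to Snhg5 went from 2.02, 1.85 and 1.80 to 2.43, 2.40 and 2.41. These 3 pairs were picked as those with the widest gaps and carry no test. Of the start windows shown above, those of 1110038B12Rik, Snhg8, Snhg12, Gas5 and Snhg3 hold a TOP-like tract beginning within 5 bases of the start. Those of Snhg1 and Snhg5 hold none within that limit, but the Snhg5 window holds such a run farther downstream. The Snhg1 window holds a run of C and T close after its start that begins with T, which the definition leaves out. A relation of the tract to these levels was not tested.

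The snoRNAs themselves were hardly covered. By its gene types, GENCODE places 29 snoRNA genes within the 8 hosts, 9 of them in Gas5 and 8 in Snhg1, all on the host's strand. The table lists 9 of the 29 by symbol. Snora24 in Snhg8 was listed at 0 in all libraries, and the others rested on 34 to 398 fragments over the 6 libraries. Snord52 in 1110038B12Rik measured 12.96, 5.13 and 35.4 FPKM in control and 54.6, 29.98 and 22.5 in DSS libraries, with overlapping groups and 163 fragments in all. Snord99 in Snhg12 measured 36.4, 64.8 and 74.8 against 54.1, 49.97 and 64.2. Each of the listed snoRNAs other than Snord87 lies within exon bases of an annotated transcript of its host, so these fragments cannot be told from those of an unspliced host RNA.

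Related genes were taken from lists chosen for their roles. None of their members passed the test, and their counts are given against the share of all tested genes with separate groups (6.35% upwards and 9.6% downwards) and the median of all tested genes (0.03). The proteins that form and assemble snoRNPs, the particles of snoRNA and protein, had 6 of 18 higher and 12 lower, with a median log2 change of −0.22 (−0.23 without DSS replicate 1). In 7 of 18 (38.9%) the highest DSS value was below the lowest control value. Nolc1, a nucleolar phosphoprotein that binds snoRNPs, measured 35.3, 30.3 and 31.2 FPKM in control and 17.1, 20.7 and 18.3 in DSS libraries. Its groups were well separated, although it did not pass (−0.76 ± 0.19 SE, limma adjusted p = 0.193). The box C/D core protein genes Nop58 (11.7 ± 0.822 and 7.52 ± 2.25, SD, n = 3) and Nop56 (86.0 ± 7.43 and 64.1 ± 8.95), the latter a snoRNA host itself, and the ATPase gene Ruvbl2 (16.8 ± 1.70 and 11.4 ± 0.350) also had separate groups.

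Other snoRNA hosts, coding and noncoding, were evenly divided, with 12 of 24 higher, 12 lower and a median of −0.05 (−0.07 without DSS replicate 1). In this list 1 had separate groups upwards and 4 downwards. Zfas1, a noncoding host that was also highest in DSS replicate 1, measured 134, 129 and 123 FPKM in control and 368, 188 and 130.4 in DSS libraries, overlapping by DSS replicate 3. Snhg10 measured 3.84 ± 2.22 and 7.63 ± 1.86, and the coding host Wdr43 22.4 ± 3.37 and 16.4 ± 0.873. Of 13 other long noncoding RNAs tested 8 were higher and 5 lower. Their median was 0.12, and it turned to −0.10 without DSS replicate 1. Mirt1 (4.35 ± 1.54 and 8.43 ± 1.96) and Ftx (0.806 ± 0.299 and 2.09 ± 0.280) had separate groups, and Rpph1, the RNA of RNase P (133 ± 10.4 and 97.7 ± 27.4), and A430093F15Rik (0.436 ± 0.306 and 1.75 ± 1.06) did not.

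Genes of the decay and the translation control of such RNAs were described next. Of 20 nonsense-mediated decay factors 7 were higher and 13 lower (median −0.17, and −0.12 without DSS replicate 1), and 1 had separate groups, lower. The 4 with the smallest p, Smg8 (8.85 ± 2.502 and 5.31 ± 1.51), Casc3 (22.4 ± 3.20 and 15.2 ± 5.54), Smg5 (16.2 ± 1.54 and 10.5 ± 5.89) and Smg9 (18.5 ± 1.44 and 12.6 ± 6.51), overlapped. Among 21 regulators of TOP RNAs and mTORC1, 9 were higher and 12 lower (median −0.03), with 1 separate upwards and 4 (19.05%) downwards. Without DSS replicate 1 that median turned to 0.09. Larp1, which binds the TOP tract, measured 39.9, 40.0 and 35.5 FPKM in control and 18.0, 27.3 and 28.0 in DSS libraries, with separate groups (−0.66 ± 0.22 SE, limma adjusted p = 0.359). Eif4ebp1, which encodes the translation repressor 4E-BP1, measured 8.55, 8.50 and 9.14 in control and 17.3, 15.3 and 13.7 in DSS libraries, also separate (0.75 ± 0.20 SE, limma adjusted p = 0.213). Mycn measured 23.0 ± 2.77 and 13.4 ± 4.19, with separate groups, and the stress-induced Sesn2 14.9 ± 3.52 and 6.68 ± 5.41, with overlap. Of 20 other TOP-type translation genes 12 were higher and 8 lower (median 0.09), 12 with their highest value in DSS replicate 1. Without that library the median turned to −0.05. In this list 2 had separate groups upwards and 3 downwards. Eif3f measured 117 ± 1.67 and 156 ± 13.5, with separate groups, and Hnrnpa1 77.0 ± 5.28 and 62.2 ± 1.96, separate in the other direction. Eif3e (49.8 ± 4.96 and 64.4 ± 12.6) and Fau (710.4 ± 27.7 and 998.5 ± 309.9), which encodes a ribosomal protein precursor, overlapped. Of the 80 ribosomal protein transcripts 66 were higher and 14 lower (median 0.23), and the median was −0.07 without DSS replicate 1 and 0.50 without DSS replicate 3. Rps27 measured 1900.3 ± 228 and 3716 ± 2385, and Rps2 1994 ± 109 and 1483 ± 311. The low Rpl32l (2.37 ± 0.393 and 5.81 ± 2.79) had separate groups, but a near-identical copy of a ribosomal protein gene may share its reads.

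The protein partners of the 2 nuclear RNAs were also described. Of 22 paraspeckle protein genes 11 were higher and 11 lower (median −0.04, and −0.03 without DSS replicate 1), with 1 separate upwards and 7 (31.8%) downwards. Cirbp, a cold-inducible RNA-binding protein gene, measured 20.5, 19.3 and 16.6 FPKM in control and 29.5, 27.6 and 27.5 in DSS libraries (0.57 ± 0.19 SE, limma adjusted p = 0.359). Pspc1, a core paraspeckle protein gene, measured 7.56 ± 0.872 and 4.86 ± 1.19, Ewsr1 111 ± 9.17 and 84.4 ± 18.9, and Smarca4 26.9 ± 0.781 and 19.1 ± 6.88. Of 23 nuclear speckle protein genes 8 were higher and 15 lower (median −0.12, and −0.05 without DSS replicate 1), with 1 separate upwards and 4 downwards. Rnps1, which activates splicing, measured 64.6 ± 2.90 and 45.7 ± 5.18, and the splicing factor gene Srsf3 154 ± 1.98 and 120.0 ± 6.62. Srsf6 measured 39.6 ± 6.05 and 30.9 ± 1.403, and Pnn 23.1 ± 2.76 and 17.8 ± 2.94.

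Genes with the most similar pattern over the 6 libraries were sought among 4424 others with a mean of at least 10 FPKM, by Pearson correlation of log2(FPKM + 1). Many genes follow the high DSS replicate 1, and the 6 points share their depth and composition, so these are descriptions. Malat1 was matched best by Rpl23, a ribosomal protein gene (r = 0.9985), Smim11 (0.9981) and Tmem14c (0.997). Without DSS replicate 1 these were 0.996, 0.982 and 0.972. The mean of the 8 standardised hosts was matched by Snrpg, a core spliceosomal protein gene (0.9997), Fam104a (0.9984) and Bex3 (0.9968). Neat1 was matched by Mrnip (0.9683), Acsbg1 (0.9562) and Diaph1 (0.9524), each highest in DSS replicate 3.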

How the data were processed

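The authors deposited 1 table of FPKM values for 23268 genes by symbol, which holds the 3 control and 3 DSS libraries of sorted ILC2s in 1 column each. Per the labels' protocols, TRIzol RNA was turned into full-length cDNA (SMART-Seq HT) and sequenced as paired-end Nextera XT libraries, which carry no strand information. Per the submitters' processing notes, the tools included cutadapt 1.9 and HISAT2 2.2.1, with mm10 as the build. What counted the fragments, and on which annotation, is not given in the sources used here.

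Values of a gene are multiples of what 1 fragment is worth, and 22701 of 22701 genes above 0 gave whole fragments (tolerance 0.001). That count is weak evidence for the recovery, because some whole numbers can nearly always be fitted where few libraries hold a value. Of these genes, 13957 were above 0 in all libraries. The recovered gene lengths were whole numbers (tolerance 0.05 bases) for 98.0% of 3104 genes scanned, and equalled the longest GENCODE M21 transcript for 94.2% of 9493 genes compared. Locations and overlaps come from that annotation (GRCm38, 1-based).

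Groups were compared two-sided in limma 3.58.1 under R 4.3.3, with a mean-variance trend. It used log2(FPKM + 1) of genes whose FPKM averaged 1 or more across the fitted libraries. Adjusted p-values (Benjamini-Hochberg) under 0.05 passed. The fit was also run on simulated fragments with 200 genes changed by known folds and no outlying library. That setting differs from these data, so it does not show what the test can detect here. A fold on this scale understates the change of low genes. Named genes were all 10 members, up to 4 genes of each related list with the smallest p, and the 3 genes most like each profile. The members, lists and tests were chosen with earlier results of these data known. Deviations from the group means correlated between libraries of the same number (0.189, 0.262 and 0.545), and 1 alternative fit was blocked by that number. These values do not establish a pairing. The labels give none, and for control replicate 1 the correlation was higher with DSS replicate 2 (0.345). The main test has no block. No library was treated as a duplicate, since chi-square per degree of freedom between libraries of 1 group was at least 21.5. Tables and figures were made with Python 3.11.15, pandas 2.3.3 and matplotlib 3.10.9.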

Additional observations from a re-analysis of the deposited data

How the results depend on the processing

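No member passed the test in any of the 18 other fits, nor at an adjusted p under 0.1 in the main fit. In other fits 2 members were under 0.1 by limma adjusted p. These were 1110038B12Rik without DSS replicate 1 (0.0522) and with quantile normalization (0.0958), and Snhg5 without DSS replicate 1 (0.0808). Of 185 members' log2 changes under alternatives, 182 kept their direction and 3 turned, all without DSS replicate 1: Malat1 (−0.06), Gas5 (−0.0081) and Snhg6 (−0.10). Leaving out each library in turn gave ranges of −0.0581 to 0.886 for Malat1, −0.0081 to 0.495 for Gas5, −0.103 to 0.474 for Snhg6 0.637 to 1.01 for 1110038B12Rik, 0.101 to 0.737 for Snhg8, 0.149 to 0.537 for Snhg12, 0.107 to 0.562 for Neat1, −0.373 to −0.124 for Snhg1, −0.524 to −0.0303 for Snhg5 and 0.154 to 0.598 for Snhg3. Snhg3 could not be tested without DSS replicate 1, nor Snhg3 and Neat1 at a mean FPKM of at least 5. The log2 ratio of Malat1 to Neat1 turned with a pseudocount of 0 (−0.097) and ran from −0.62 without DSS replicate 1 to 0.779 without DSS replicate 3, with −0.011 without control replicate 1. The number of genes that passed, 27 (9 higher, 18 lower), was 14 with an equal total (6 and 8), 9 with median-of-ratios scaling (5 and 4), 4 with no trend, 8 without both replicates 3 and 53 at an adjusted p under 0.1. Without 1 library it ran from 5 to 435, the latter without DSS replicate 1. It was 20 with no filter. With the replicate block, based on the replicate numbers and not on a known pairing, it was 22 (12 higher, 10 lower, so the balance turned) and no member's call changed. The causes were not tested. Depth limits Snhg3 (3 to 26 fragments) most. No relation to a batch was examined, since the labels name none.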
